A study of Mus musculus and Rattus norvegicus with 37 samples.

Results

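The genes described here are 9 members of the platelet-derived growth factor (PDGF) and vascular endothelial growth factor (VEGF) families. They are the ligands Pdgfa, Pdgfb, Pdgfc, Vegfa, Vegfb and Vegfc, the receptors Pdgfra and Flt1, and the co-receptor Nrp1. The genes were taken by name, and all 9 were found in each of 4 tables of normalized counts, among 48440 entries in each of the 2 mouse tables and 32750 entries in each of the 2 rat tables. The tables hold RNA-seq values of 37 livers, 21 from mice and 16 from rats.

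The mice were C57BL/6J females. The WT/Floxed group pools mice of WT and of floxed Sirt1 background, 8 given LNA29 (4 WT and 4 floxed) and 5 given saline (3 WT and 2 floxed, after the authors left out 1 floxed mouse). The SIRT1KO group holds littermates of the floxed mice labelled as lacking Sirt1 in the liver only, 4 with LNA29 and 4 with saline. WT mice were 9 to 11 weeks old, while floxed and SIRT1KO mice were 15 to 20 weeks old, so background and age cannot be told apart. LNA29 combines 2 inhibitors of the miR-29 family made with locked nucleic acid (LNA), given once under the skin at 20 mg/kg of each, and fed mice were sampled on day 7. The control was saline and not an LNA of another sequence. The Cre line that deletes Sirt1 is not named in the sources used here, and the mouse work was done at more than 1 site. All rats were male. Zucker Fatty rats (fa/fa, with a mutation of the leptin receptor) and Zucker Lean rats were compared at 5.5 months of age (n = 4 each). Other Zucker Fatty rats, 3 months old, received BT2, an inhibitor of the kinase that restrains branched-chain ketoacid dehydrogenase, at 20 mg/kg daily for 1 week, or its DMSO vehicle (n = 4 each).

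Mouse libraries held an estimated 42.6 to 78 M reads, and rat libraries 0.188 to 58.5 M, with 2 Zucker Lean rats and 1 vehicle rat under 0.2 M reads, where 1 read was worth more than 10 normalized counts. Sirt1 itself was not lower in the livers labelled SIRT1KO (534.6 to 616.5 normalized counts) than in the WT/Floxed livers (492.7 to 699.1), across 2 tables that were normalized separately, so the group is called by its label throughout. The tables give totals per gene, to which an mRNA with a deleted exon can still contribute. The study also measured hepatic Sirt1 by RT-qPCR, which is not analysed here. Hepatocyte markers were present in every liver, and so were markers of sinusoidal endothelial cells, stellate cells and macrophages. In whole liver, fewer cells of a type and less RNA per cell cannot be told apart.

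PDGF chains pair into dimers that bind tyrosine kinase receptors on mesenchymal cells, and in the liver they are best known as growth and migration signals for hepatic stellate cells, the pericytes that lay down collagen in fibrosis. VEGF-A, made largely by hepatocytes, acts on the endothelial cells of the sinusoids, where it keeps the capillary wall open and supports regeneration. Flt1 binds VEGF-A and VEGF-B tightly but signals weakly, Vegfc acts mainly on lymphatic vessels, and neuropilin-1 (Nrp1) holds VEGF and semaphorins for other receptors. MicroRNAs such as miR-29 lower the mRNAs that pair with their seed, and collagen mRNAs are the best known miR-29 targets.

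The mature miR-29 sequences are shown because LNA29 blocks them and because they define which of the 9 mRNAs could pair with the family. In these RefSeq sequences (GRCm38.p6), written 5′ to 3′, capitals mark the seed, bases 2 to 8, which all of them share.
miR-29a-3p: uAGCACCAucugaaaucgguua
miR-29b-3p: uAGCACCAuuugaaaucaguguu
miR-29c-3p: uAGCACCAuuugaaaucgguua
On GRCm38, miR-29a lies at chr6:31062673-31062694 on the minus strand and miR-29c at chr1:195037600-195037621 on the plus strand. miR-29b is encoded at both loci, at chr6:31063025-31063047 (minus) and chr1:195037091-195037113 (plus).

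The complement of the seed was searched on the sense strand of the annotated 3′ UTR of every complete coding transcript of each mouse gene. Lengths and positions are given for the longest 3′ UTR. It was found in 5 of the 9 genes, namely Pdgfa, Pdgfb, Pdgfc, Vegfa and, at 2 places, Pdgfra. Each line below gives up to 30 bases of the sense strand around 1 match, 5′ to 3′, and capitals mark the 7 bases that pair with the seed.
Pdgfa: acattcctgaacatactatgtaTGGTGCTt
Pdgfb: gatgcctgattcggacggccaaTGGTGCTt
Pdgfc: acatatgtatttcttccttgtaTGGTGCTa
Pdgfra (first): actgcaaaccctgagaccacaaTGGTGCTg
Pdgfra (second): gaagctatatatatgaactgccTGGTGCTc
Vegfa: atatttgttatcatttatttatTGGTGCTa
In Pdgfc and Vegfa the match is followed by an A, which makes it an 8-base site. The matches lie at chr5:138977141-138977147 (minus strand) in Pdgfa, chr15:79997148-79997154 (minus) in Pdgfb, chr3:81213500-81213506 (plus) in Pdgfc, chr5:75196365-75196371 and chr5:75196526-75196532 (plus) in Pdgfra, and chr17:46017170-46017176 (minus) in Vegfa. All of them are in 3′ UTR exons, at base 70 of 1203 in Pdgfa, 128 of 1408 in Pdgfb, 922 of 1462 in Pdgfc, 1265 and 1426 of 3115 in Pdgfra and 1682 of 1865 in Vegfa. The site of Vegfa is in 2 of its 8 complete coding transcripts and that of Pdgfra in 2 of 4. These letters do not occur in the annotated 3′ UTRs of Vegfb (417 bases), Vegfc (1028), Flt1 (3971) and Nrp1 (549).

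**Figure D1:**
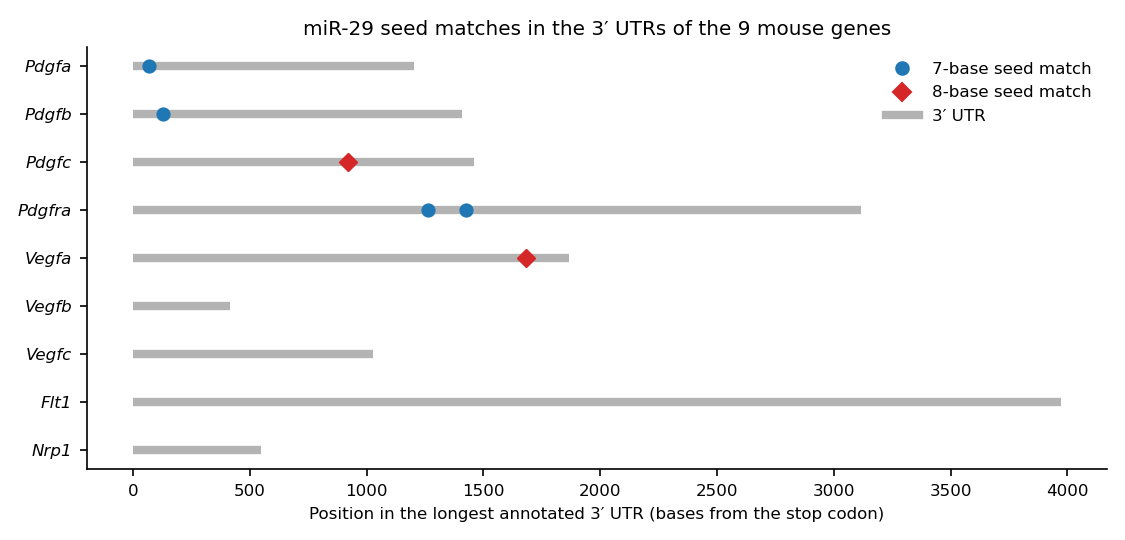
Positions of the miR-29 seed matches along the longest annotated 3′ UTR of each of the 9 mouse genes, in bases from the stop codon (grey bars are the UTRs, circles 7-base matches and diamonds 8-base matches). Pdgfa, Pdgfb, Pdgfc and Vegfa hold 1 match each and Pdgfra holds 2, while Flt1, with the longest UTR (3971 bases), holds none.

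Such a match is not rare. Among 21663 mouse genes with a 3′ UTR model, 13.39% held at least 1 match in any of their complete coding transcripts and 2.899% an 8-base site. Among genes whose longest UTR was of like length (80 to 125% of the member's), the share with a match was 12.9% for Pdgfa, 13.4% for Pdgfb, 14% for Pdgfc, 17.3% for Vegfa and 28.6% for Pdgfra. It was 35.6% for UTRs like that of Flt1, which held none. A match of letters is a description of the sequence, not evidence that miR-29 acts there.

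Per kilobase of exon, Vegfa was the most abundant of the 9 mRNAs in saline-treated WT/Floxed livers, at 1420 ± 305 normalized counts per kb (SD, n = 5), and Pdgfb the least, at 22.3 ± 1.4. Nrp1 followed Vegfa at 580 ± 58.6 per kb and Vegfb came next at 487 ± 129. A second tier held Pdgfc (112 ± 25 per kb), Pdgfa (92.5 ± 24.2) and Vegfc (81.8 ± 20.1). Below them were the receptors Flt1 (50.9 ± 7.44 per kb) and Pdgfra (39.1 ± 3.6). Neighbours in this order overlapped in range for Nrp1 and Vegfb, for Pdgfc and Pdgfa, and for Pdgfa and Vegfc, and these pairs do not differ beyond their spread. All other neighbours were separated in every saline-treated mouse. The order rests on the union of a gene's annotated exons as its length (13504 bases for Flt1 and 10024 for Pdgfra). Before division by length the means of the same mice were ordered otherwise. Flt1 (687) stood above Pdgfc (568.6), and Pdgfra (391.4) above Pdgfa (288.6) and Vegfc (200.2). In the saline-treated mice labelled SIRT1KO, Vegfa again came first (1600 ± 223 per kb) and Pdgfb last (26.9 ± 7.7), while Vegfb (698 ± 61.1) stood above Nrp1 (572 ± 111) with overlapping ranges. Tables were normalized separately, so these levels are set side by side without a test. The exons of Pdgfa overlap those of the antisense gene 6330403L08Rik over 813 bases, those of Pdgfra overlap Gm42802 over 456 and Gm42803 over 166, and those of Pdgfc overlap Gm16000 over 147. Whether the counting used strand is not given in the sources used here.

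The first comparison asks whether inhibition of miR-29 changed these growth factor genes in WT/Floxed livers. None of the 9 genes was called. In limma's test, 0 of 9 passed the criteria used for mice (p under 0.05, adjusted p under 0.2, mean above 50 normalized counts, fold change above 1.2), and 0 of 9 had an unadjusted p under 0.05. Of all 15811 genes tested, 688 (4.35%) passed the criteria, and 13.3% had an unadjusted p under 0.05. The median log2 difference of the 9 genes was 0.15, against 0 over all genes tested. In the same livers 5 matrix genes, taken here as readouts of miR-29 inhibition, were all higher with LNA29 (Col1a1, Col1a2, Col3a1, Eln and Sparc, median log2 difference 1.16). Of these, Col1a1 (0.87, adjusted p = 0.123) was not called without LNA29 replicate 7, saline replicate 4 or saline replicate 2, with adjusted p-values up to 0.253, and the other 4 readouts passed whichever of the 13 mice was omitted.

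Of the PDGF ligands, Pdgfa, whose homodimer acts on Pdgfra, ranged from 225.4 to 364.2 normalized counts with LNA29 (median 277.4, n = 8) and from 229.9 to 414.8 with saline (median 253.5, n = 5). The groups overlapped over most of their range, and the log2 difference was 0.01 (95% confidence interval -0.32 to 0.35). Pdgfb, the ligand for both PDGF receptors, ranged from 71.72 to 216.5 with LNA29 (median 110.4) and from 83.23 to 97.73 with saline (median 95.32). Its saline values were tightly grouped and its LNA29 values spread to both sides of them, with a difference of 0.26 (-0.17 to 0.69). Without the highest LNA29 mouse (replicate 4) the difference was 0.12. Pdgfc, which is secreted in a latent form and activated by cleavage, ranged from 491.5 to 821.2 with LNA29 (median 602.2) and from 453.7 to 782.7 with saline (median 551.4), a difference of 0.15 (-0.16 to 0.45). The receptor Pdgfra, found on stellate cells and portal fibroblasts, ranged from 342.9 to 525.1 with LNA29 (median 430.1) and from 333.5 to 422.6 with saline (median 408.6). The groups overlapped for Pdgfra, whose difference was 0.15 (-0.09 to 0.39).

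Of the VEGF ligands, Vegfa ranged from 5252 to 7203 normalized counts with LNA29 (median 6025, n = 8) and from 4258 to 7725 with saline (median 6488, n = 5). The saline mice enclosed all LNA29 mice, and the means were 6108 and 6105. The interval of the log2 difference, 0.02 (-0.24 to 0.28), allows no change of Vegfa beyond 1.22-fold in either direction at this confidence level. Vegfb, which acts through Flt1 and Nrp1, ranged from 569.7 to 1124 with LNA29 (median 778) and from 572.6 to 1060 with saline (median 687.3), a difference of 0.09 (-0.3 to 0.47). Vegfc ranged from 135 to 344.3 with LNA29 (median 222) and from 158.7 to 260.7 with saline (median 170.8), a difference of 0.2 (-0.25 to 0.66). Both spread widely within each treatment.

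Of the receptors, Flt1 ranged from 510.4 to 738.2 normalized counts with LNA29 (median 694.1) and from 589 to 855 with saline (median 662.1). It was the only one of the 9 genes with a difference below 0 (-0.09, interval -0.35 to 0.17). Nrp1 ranged from 5270 to 7538 with LNA29 (median 6581) and from 5068 to 6483 with saline (median 5727). It had the smallest p of the 9 genes, with a log2 difference of 0.17 (-0.03 to 0.37, limma p = 0.0865, Benjamini-Hochberg adjusted p = 0.469, exact permutation p = 0.105), and 5 of its values with LNA29 exceeded every saline value. Adjusted p-values of the other members ran from 0.638 to 0.98. Within the 3 run codes of the sample descriptions, Pdgfra was higher with LNA29 in each (0.02, 0.18 and 0.24), while the difference of Nrp1 was 0.4, -0.14 and 0.37. For Pdgfa it was -0.1, 0.3 and -0.21, and for Vegfa -0.02, -0.18 and 0.21.

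**Figure D2:**
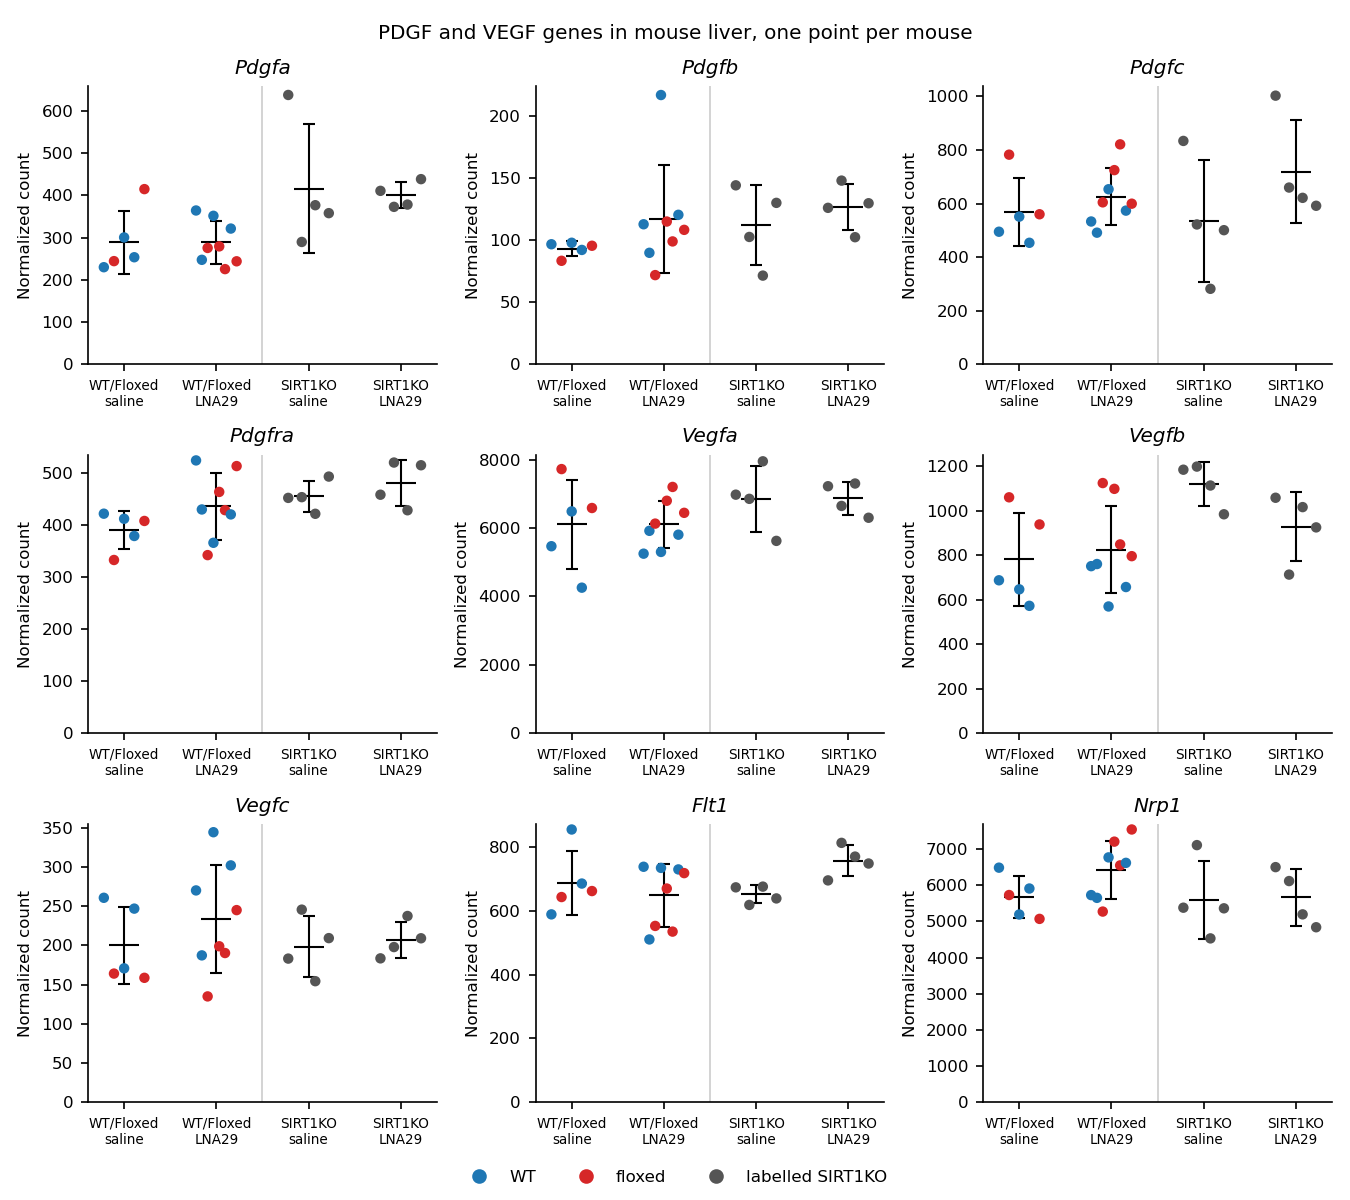
Normalized counts of the 9 genes in mouse liver, 1 point per mouse, in WT/Floxed mice with saline (n = 5) or LNA29 (n = 8) and in mice labelled SIRT1KO with saline or LNA29 (n = 4 each), where bars give the mean and SD. Blue is WT, red floxed and grey SIRT1KO, and the 2 sides of each panel were normalized separately. LNA29 and saline points overlap in every panel on both sides, apart from Flt1 in SIRT1KO mice, where LNA29 (695.5 to 813.1) lies above saline (618.6 to 676).

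The second comparison asks the same in mice labelled SIRT1KO. Again none of the 9 genes passed the criteria (0 of 9 in limma's test, 1 of 9 at an unadjusted p under 0.05), where 297 of 15885 genes did (1.87%) and 11.2% had an unadjusted p under 0.05. The median log2 difference of the 9 genes was 0.08, against 0 over all genes, and the 5 collagen, elastin and Sparc readouts were again all higher (median 1.71). Of the readouts, Col1a2 (0.85, adjusted p = 0.0891) was not called with the run code as a covariate (adjusted p = 0.234) or without LNA29 replicate 4 or 2 (0.214 and 0.228). The gene with an unadjusted p under 0.05 was Flt1. Its normalized counts with LNA29 were 695.5, 813.1, 770.1 and 748.4, and with saline 673.7, 618.6, 676 and 639. Every LNA29 mouse was above every saline mouse, as was the case in either direction for 6.95% of all genes tested. The log2 difference of Flt1 was 0.21 (95% interval 0.01 to 0.42). Its adjusted p was 0.416 in limma, and its exact permutation p was 0.0286, the smallest that 4 against 4 mice allow. Within the run codes, of 1 or 2 mice per group, the difference of Flt1 was 0.32, 0.16 and 0.19. Its sign there was fixed by the separation of the groups.

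Vegfb went the other way. Its normalized counts with LNA29 were 1058, 712.9, 1016 and 924.9, and with saline 1184, 1198, 1113 and 983.8. The groups overlapped through 1 saline mouse, and the log2 difference was -0.28 (-0.58 to 0.02, adjusted p = 0.485). Pdgfc had the largest difference and the widest interval. It measured 1003, 659.9, 621.5 and 591.9 with LNA29 and 834, 522.1, 281.9 and 500.8 with saline, a difference of 0.5 (-0.17 to 1.16, adjusted p = 0.582). Without the lowest saline mouse (replicate 3) the difference of Pdgfc was 0.22.

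The other ligands had differences near 0 or wide intervals in the mice labelled SIRT1KO. Pdgfa measured 410.7, 372.8, 378.2 and 438.4 with LNA29 and 637.7, 289.7, 376.7 and 357.9 with saline (difference 0.01, interval -0.47 to 0.48). Pdgfb measured 125.8, 147.7, 102.2 and 129.5 with LNA29 and 143.9, 102.4, 71.32 and 129.8 with saline (0.21, -0.3 to 0.72). The saline mice of both genes spread beyond all LNA29 mice on the low side, and for Pdgfa also on the high side. Vegfa measured 7224, 6648, 7303 and 6302 with LNA29 and 6977, 6855, 7952 and 5626 with saline (0.01, -0.24 to 0.26). Vegfc measured 183.5, 197.9, 237.5 and 209.1 with LNA29 and 183.2, 245.6, 154.4 and 209.3 with saline (0.08, -0.29 to 0.44). For both VEGF ligands the saline values enclosed those with LNA29.

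The receptor Pdgfra measured 459.1, 521, 429.2 and 515.8 with LNA29 and 453, 454.4, 422.4 and 494 with saline (difference 0.08, interval -0.16 to 0.31). Nrp1 measured 6498, 6113, 5193 and 4837 with LNA29 and 5377, 7106, 4529 and 5360 with saline (0.03, -0.3 to 0.35). Both pairs of groups overlapped. The response to LNA29 was also compared between the 2 mouse groups as an interaction over 15601 genes, of which 7 (0.0449%) had an adjusted p under 0.2. None of the 9 genes was among them (0 of 9 in limma, also 0 of 9 at an unadjusted p under 0.05). Flt1 had the smallest p, with a response higher by 0.3 on the log2 scale in mice labelled SIRT1KO (SE 0.168, adjusted p = 0.612 in limma). For Vegfb the difference between the responses was -0.37 (SE 0.262, adjusted p = 0.716), and adjusted p-values of the other members ran up to 0.997.

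**Figure D3:**
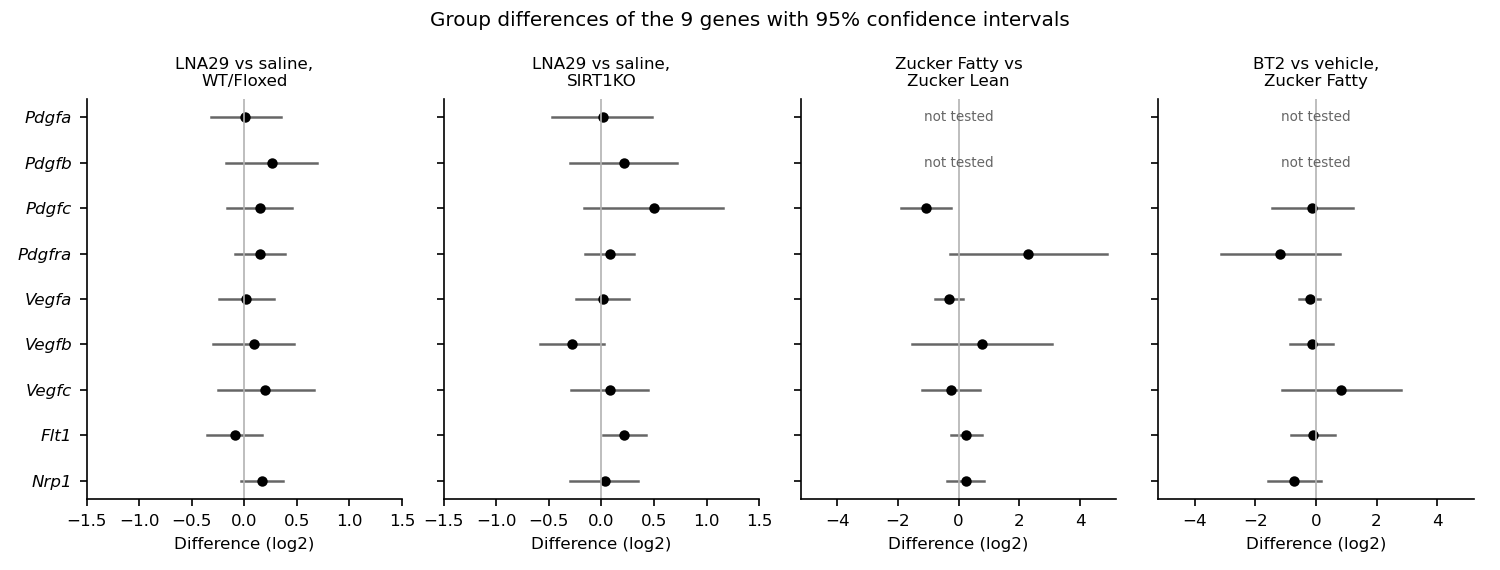
Differences between groups on the log2(normalized count + 1) scale (points) with 95% confidence intervals (lines) for the 9 genes in the 4 comparisons. The interval excludes 0 for Flt1 in mice labelled SIRT1KO (0.01 to 0.42) and for Pdgfc in Zucker Fatty against Zucker Lean rats (-1.9 to -0.24), and the rat panels have a wider axis than the mouse panels.

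The 5 genes with a miR-29 seed match can be set beside all genes with one. In WT/Floxed mice, 6.59% of 2200 tested genes with a match were higher with LNA29 by the criteria, 14% of 473 with an 8-base site, and 1.86% of 11329 without a match, with median log2 differences of 0.04, 0.09 and 0. Of the 5 members with a match, 0 were higher by the criteria, against 2.42% of all genes tested, with a median of 0.15, and the 8-base members Pdgfc (0.15) and Vegfa (0.02) had a median of 0.08. The 4 members without a match had a median of 0.13. In mice labelled SIRT1KO, 3.99% of genes with a match, 8.84% of those with an 8-base site and 0.773% of those without were higher (1.19% of all genes tested). The medians there were 0.08 for the 5 members with a match and 0.05 for the 4 without. No test was made between the members with and without a match.

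Markers of the cells that carry these receptors were set beside the LNA29 comparisons. The summed level of 10 sinusoidal endothelial markers ranged from 15820 to 25050 normalized counts with LNA29 and from 19510 to 25000 with saline in WT/Floxed mice, and 1 of the 10, Lyve1, was lower by the criteria. In mice labelled SIRT1KO the sum was 19550 to 22000 with LNA29 and 21940 to 24140 with saline, and 2 of 10, Lyve1 and Stab1, were lower while Flt1 was not. The 10 stellate markers summed to 28170 to 34490 with LNA29 and 25740 to 34890 with saline in WT/Floxed mice, with 0 of 10 called in either mouse table. The 8 Kupffer cell and macrophage markers summed to 13060 to 16400 with LNA29 and 16240 to 19530 with saline in mice labelled SIRT1KO, where 2 of 8, Clec4f (-0.29, adjusted p = 0.19) and Vsig4 (-0.54, adjusted p = 0.0891), were lower. In WT/Floxed mice they ranged from 7343 to 40600 with LNA29 and from 13480 to 23650 with saline, with 0 of 8 called. Of 8 hepatocyte markers, Apoa1 was higher (0.51, adjusted p = 0.0312) and Tat lower (-0.48, adjusted p = 0.0993) in WT/Floxed mice, and 0 of 8 were called in mice labelled SIRT1KO. No marker of these lists was at 0 in every library of a mouse group. The part of these cells in the values of the 9 genes was not tested.

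Within the WT/Floxed group, the spread of several of these genes followed the WT or floxed background that the sample titles give. This comparison was added after the values were seen, with treatment as a covariate, and 2331 of 15811 genes (14.7%) passed the same criteria in it. Of the 9 genes, 4 passed, 3 higher and 1 lower in floxed mice, where 7.26% and 7.48% of all genes were higher and lower. At an adjusted p under 0.05, 1 of 9 passed (Vegfb), against 5.66% of all genes, and 4 of 9 had an unadjusted p under 0.05, against 25.4%. Vegfb was 977 ± 137 normalized counts in floxed livers (SD, n = 6) and 664 ± 76.3 in WT livers (SD, n = 7), 1.47-fold higher. Every floxed mouse (795.7 to 1124) was above every WT mouse (569.7 to 760.3), as was the case in either direction for 2.06% of all genes. The log2 difference of Vegfb was 0.55 (95% interval 0.32 to 0.78, adjusted p = 0.0151 in limma). It was 0.65 in saline mice, 0.49 in LNA29 mice, and 0.67, 0.58 and 0.49 within the 3 run codes. Because the backgrounds did not overlap over the whole group, they could not overlap in any of these subsets of the same mice.

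Vegfa was higher in floxed livers too, at 6815 ± 572 against 5500 ± 694 normalized counts (log2 difference 0.32, interval 0.12 to 0.51, adjusted p = 0.0533). Floxed and WT values of Vegfa overlapped over the whole group (6131 to 7725 against 4258 to 6488) but not within either treatment or within any of the 3 run codes. The saline mice were 2 floxed and 3 WT, and each run code held 2 floxed and 2 or 3 WT mice. The share of all genes without overlap in groups this small was not computed, so nothing is concluded from it. Pdgfc was 682 ± 109 in floxed and 536 ± 65.8 in WT livers (0.33, 0.09 to 0.57, adjusted p = 0.0847), and within run codes it differed by 0.36, 0.44 and 0.18. Vegfc was lower, at 182 ± 38.5 against 255 ± 60.8 (-0.49, -0.86 to -0.13, adjusted p = 0.0897), and within run codes it differed by -0.32, -0.66 and -0.47. Pdgfc and Vegfc overlapped between backgrounds in the LNA29 mice.

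The other 5 genes did not pass, with log2 differences of -0.09 for Pdgfa, -0.28 for Pdgfb, -0.05 for Pdgfra, -0.12 for Flt1 and 0.01 for Nrp1. In LNA29 mice alone none of the 9 passed, with differences of 0.49 for Vegfb and 0.25 for Vegfa, and 173 genes of the whole table did. In saline mice alone 2 of the 9 passed, and 3674 genes of the whole table did. Without 1 saline mouse, replicate 4, Vegfa fell below the fold limit (0.26), and without replicate 2 the adjusted p of Pdgfc was 0.201 (difference 0.25). Depth was 54.8 to 67.8 M reads in floxed and 44.3 to 78 M in WT mice. The 10 stellate markers summed to 31660 to 34890 in floxed and 25740 to 32890 in WT livers, 6 platelet markers to 281.8 to 328.7 and 169 to 327.9, and 10 sinusoidal endothelial markers to 16330 to 24670 and 15820 to 25050. The part of these markers in the result was not tested. Of the 5 miR-29 readouts, 4 were lower in floxed livers too, namely Col3a1 (-0.72, adjusted p = 0.00875), Col1a2 (-0.53, adjusted p = 0.0189), Col1a1 (-0.55, adjusted p = 0.12) and Eln (-0.33, adjusted p = 0.138), while Sparc differed by -0.17. When 1 mouse was left out, Col3a1 and Col1a2 were called in 13 of 13 fits, Col1a1 in 11 and Eln in 7, and without treatment as a covariate none of the 4 was called. Background and age cannot be told apart, and the colony of the mice is not given in the sources used here. In the separately normalized table of SIRT1KO littermates, aged as the floxed mice were, Vegfb was 983.8 to 1198 with saline and 712.9 to 1058 with LNA29. In the same order, Vegfa was 5626 to 7952 and 6302 to 7303 there, Pdgfc 281.9 to 834 and 591.9 to 1003, and Vegfc 154.4 to 245.6 and 183.5 to 237.5. These levels were not tested against those of floxed or WT mice.

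**Figure D4:**
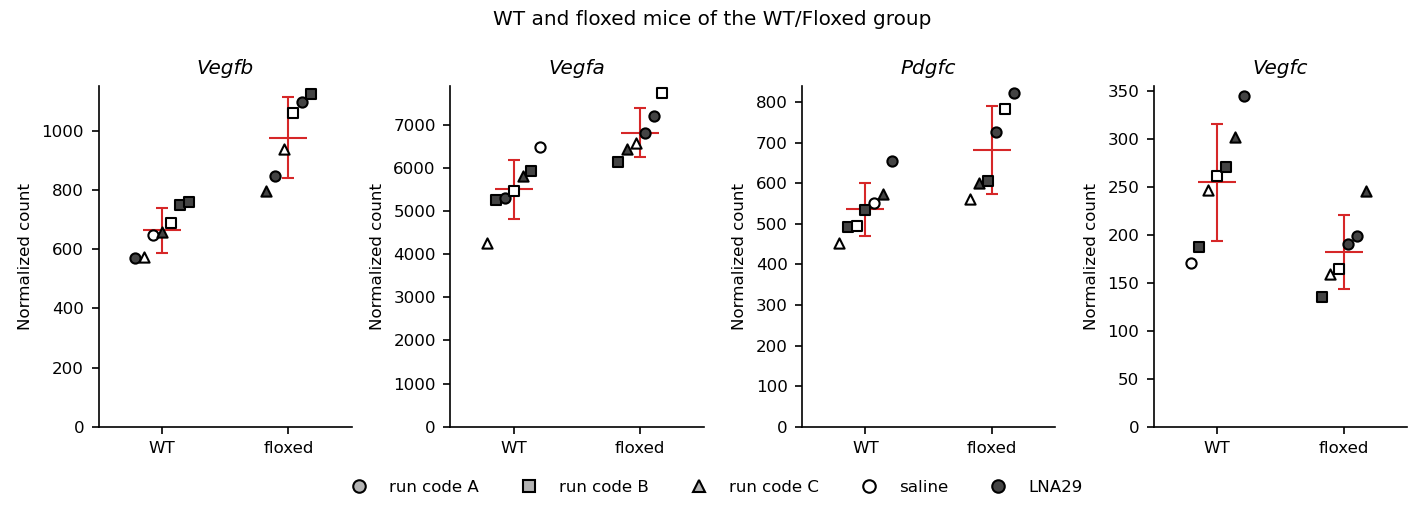
Normalized counts of Vegfb, Vegfa, Pdgfc and Vegfc in the 7 WT and 6 floxed mice of the WT/Floxed group, 1 point per mouse, with red bars for the mean and SD, symbols for the run code and open or filled points for saline or LNA29. All floxed mice are above all WT mice for Vegfb (795.7 to 1124 against 569.7 to 760.3), while the backgrounds overlap for Vegfa, Pdgfc and Vegfc.

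In rats, the first comparison was between obese Zucker Fatty and Zucker Lean livers. Of the 9 genes, 7 reached the minimum mean of 10 normalized counts, and none passed an adjusted p under 0.05 in limma (0 of 7, with 1 of 7 at an unadjusted p under 0.05). Of 8633 genes tested 367 passed (4.25%), and 16.6% had an unadjusted p under 0.05. The median log2 difference of the 7 genes was 0.23, against 0.07 over all genes. The gene with an unadjusted p under 0.05 was Pdgfc. Its normalized counts in Zucker Fatty rats were 11.1, 7.47, 13.5 and 10.6, and in Zucker Lean rats 37.7, 19.8, 16.7 and 22.5. Every Fatty rat was below every Lean rat, as was the case in either direction for 14.5% of all genes.

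The log2 difference of Pdgfc was -1.07 (95% interval -1.9 to -0.24, p = 0.0171, adjusted p = 0.173, exact permutation p = 0.0286, the smallest possible). It was -0.65 and -1.48 within the 2 run codes of 2 rats per group, where its sign was fixed by the separation of the groups. The value of Pdgfc in Lean replicates 3 and 4 rests on 1.59 and 2.15 estimated reads, below the floor of 3 reads, whereas Lean replicates 1 and 2 hold 983 and 458 reads and the Fatty rats between 6.35 and 346. With sample quality weights the adjusted p was 0.0147 (difference -1.09), and with weights from the reads behind each value it was 0.013 (-1.27), so that Pdgfc passed in those fits and not in the unweighted one. Without the rat libraries under 1 M reads the difference of Pdgfc was -1.42 (adjusted p = 0.0597 in limma, not called).

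The other tested genes of these rats did not pass, with the groups overlapping for each. Vegfa measured 343, 284, 219 and 265 normalized counts in Fatty and 273, 378, 282 and 477 in Lean rats (log2 difference -0.32, interval -0.77 to 0.13). Flt1 measured 38.9, 33, 27.2 and 29.6 in Fatty and 27.2, 27.7, 31.6 and 20.9 in Lean rats (0.25, -0.26 to 0.76). Nrp1 measured 25.4, 33, 25.1 and 42 in Fatty and 20.3, 22.7, 31.6 and 31.3 in Lean rats (0.23, -0.37 to 0.82). All 3 overlapped between the groups. The last pair of Lean values is 3 and 2 reads for Flt1 and 3 reads each for Nrp1. Vegfc measured 14.4, 14.1, 8.36 and 7.78 in Fatty and 17.5, 14.7, 10.5 and 10.4 in Lean rats (-0.25, -1.21 to 0.71), where the last pair of Lean values is 1 read each.

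The largest difference among the 9 genes in rats was that of Pdgfra, and it rests on the shallowest libraries. It measured 22.2, 29.4, 25.1 and 21.8 in Fatty rats and 27.2, 24.6, 0 and 0 in Lean rats, a log2 difference of 2.3 (-0.3 to 4.89, adjusted p = 0.363). A floor of 3 reads in the Lean livers with 0 reads stood at 31.6 and 31.3, above every Fatty value, so the level there could not be determined at this depth. Without the rat libraries under 1 M reads the difference was -0.09. Vegfb measured 22.7, 24.7, 4.18 and 15.6 in Fatty and 22.7, 22.2, 0 and 10.4 in Lean rats (0.76, -1.54 to 3.07), and -0.12 without those libraries. The Fatty value of 4.18 is 2 reads and the Lean value of 10.4 is 1 read. Pdgfa (mean 9.06) and Pdgfb (mean 1.77) were under the minimum mean. Pdgfa was 7.24 to 13.2 in Fatty and 3.7 to 12.2 in Lean rats, and Pdgfb was 1.56 to 4.18 in Fatty and 0 to 1.6 in Lean rats.

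With BT2, none of these genes was called in Zucker Fatty livers, and 0 of all 8405 genes tested (0%) passed an adjusted p under 0.05 in limma, with 332 (3.95%) at an unadjusted p under 0.05 and 1 gene passing with sample quality weights. Of the 9 genes, 7 were tested, and 0 of 7 had an unadjusted p under 0.05. Their median log2 difference was -0.13, against 0.01 over all genes. Nrp1 had the smallest p. It measured 14.2, 10.7, 12.1 and 16.3 normalized counts with BT2 and 17.1, 22.8, 14.7 and 41.3 with vehicle. Only the lowest vehicle rat was within the BT2 range, and the log2 difference was -0.71 (95% interval -1.57 to 0.16, adjusted p = 0.898, exact permutation p = 0.0571). The highest vehicle value of Nrp1 is 4 reads, and without that rat the difference was -0.42. The values of Nrp1 with BT2 are 4, 8, 9 and 3 reads.

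Vegfa measured 340, 264, 299.8 and 298 with BT2 and 267, 331, 410 and 382 with vehicle (difference -0.2, interval -0.55 to 0.15). Pdgfc measured 23, 12.7, 3.94 and 11.7 with BT2 and 8.22, 13.8, 7.28 and 24.6 with vehicle (-0.12, -1.46 to 1.21). The groups overlapped for both genes. Pdgfra measured 7.12, 16, 16.1 and 0 with BT2 and 9.75, 19.3, 11.9 and 20.7 with vehicle (-1.17, -3.13 to 0.78), and the difference was 0.27 without the libraries under 1 M reads. Vegfc measured 14.2, 16, 13.4 and 16.3 with BT2 and 18.3, 17.7, 16.5 and 0 with vehicle (0.84, -1.13 to 2.81), and -0.24 without those libraries. Both signs thus turned with the shallow libraries. Vegfb was 13.4 to 17.8 with BT2 and 14.1 to 20.7 with vehicle (-0.13, -0.84 to 0.58), and Flt1 was 17.8 to 48.9 and 22.9 to 31 (-0.08, -0.81 to 0.64). Pdgfa and Pdgfb were again under the minimum mean, at 6.27 and 2.05.

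**Figure D5:**
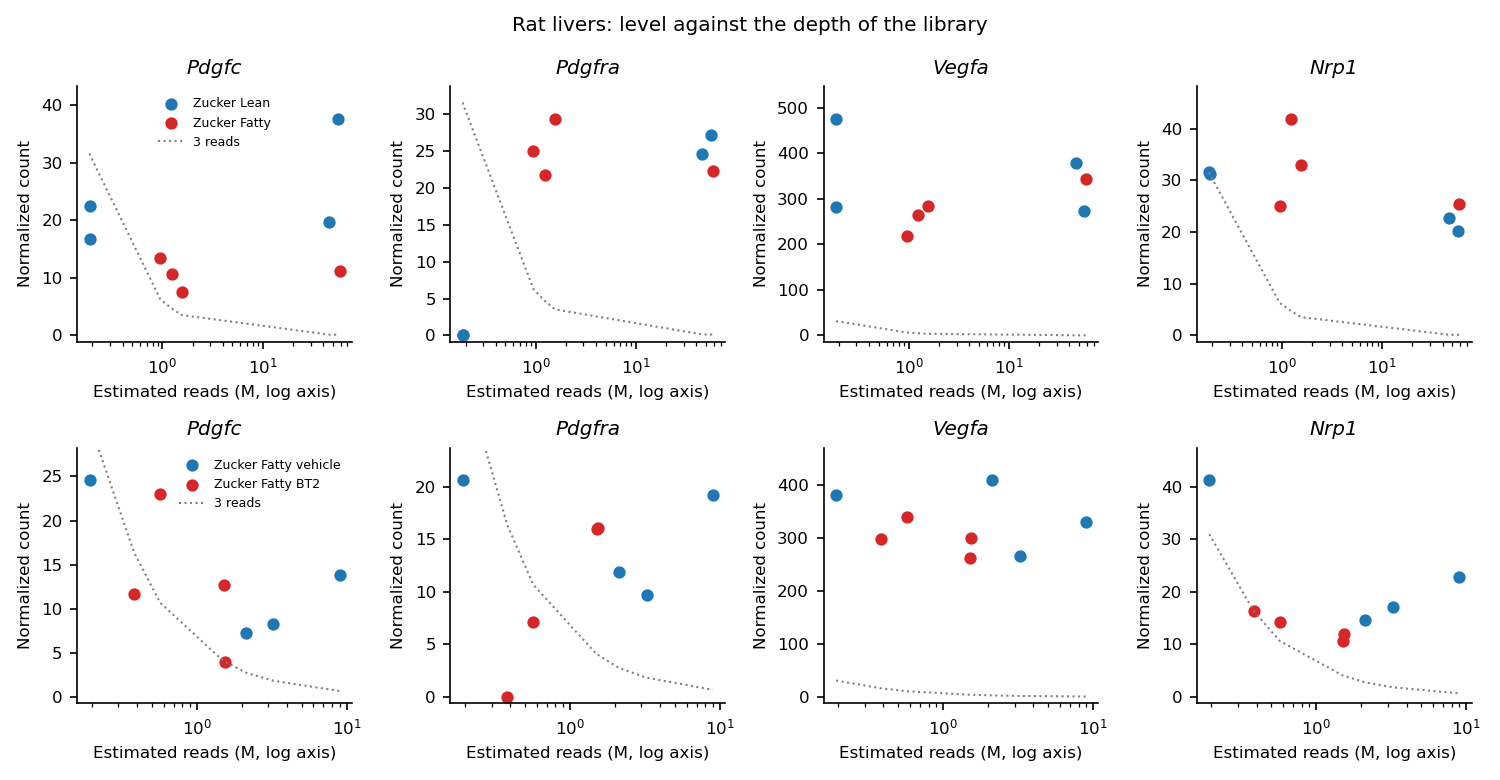
Normalized counts of Pdgfc, Pdgfra, Vegfa and Nrp1 against the estimated reads of each rat library (log axis), 1 point per rat, with Zucker Fatty and Zucker Lean rats in the upper panels and BT2 and vehicle in the lower panels. The dotted line is the value of 3 reads, and Pdgfra is 0 in both Lean libraries under 0.2 M reads, where that line stands at 31.3 and 31.6, while Vegfa lies above the line in every library.

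Of the 8 further members of both families found in the mouse tables, 7 were tested. In WT/Floxed mice 1 of 7 passed, where 4.35% of all genes did. Nrp2, the co-receptor related to Nrp1 and partner of Flt4 on lymphatic vessels, was lower with LNA29 in WT/Floxed livers, from 882.9 to 1473 (median 1058) against 1361 to 1744 with saline (median 1480). Its log2 difference was -0.5 (adjusted p = 0.0393), and -0.36 in mice labelled SIRT1KO (adjusted p = 0.438). In rats, Nrp2 was higher in Zucker Fatty (57.7 to 94.8) than in Zucker Lean livers (10.4 to 31.2), by 1.79 on the log2 scale (adjusted p = 0.0134). The lowest Lean values of Nrp2 are 1 and 2 reads, in the libraries under 0.2 M reads, and the difference was 1.41 without the libraries under 1 M reads (adjusted p = 0.0181) and 1.66 without Zucker Fatty replicate 1 (adjusted p = 0.0515, not called). Pdgfrb, the PDGF receptor of stellate cells and pericytes, differed by 0.26 in WT/Floxed mice (adjusted p = 0.188) and was just under the fold limit. Kdr (-0.17), Flt4 (-0.01), Pdgfd (0.01), Pdgfrl (0.47) and Vegfd (0.22) did not pass, and Pgf was under the minimum mean. The median over the 7 genes was 0.01.

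Few genes that act before or after the 9 members were called. Over all genes, 4.35% were called in WT/Floxed mice, 1.87% in mice labelled SIRT1KO and 4.25% in Zucker Fatty against Lean rats. Of 16 tested genes for ligand processing, co-receptor partners and semaphorins, 0 passed in WT/Floxed mice (0 at an unadjusted p under 0.05, median 0.11), and 1 passed in mice labelled SIRT1KO. This was Plxna2, a semaphorin receptor that works with Nrp1, which was higher with LNA29 (1689 to 2546 against 1012 to 1514, log2 difference 0.67, adjusted p = 0.16). Leaving out single mice gave adjusted p-values of Plxna2 between 0.151 and 0.335, and 2 of 8 such fits passed, those without LNA29 replicate 1 and without saline replicate 2. With the run code as a covariate Plxna2 did not pass (0.65, adjusted p = 0.303). Of 15 genes of the signal relay inside the cell, 0 passed in either mouse table (0 and 1 at an unadjusted p under 0.05, medians -0.02 and -0.05). Of 13 rat relay genes, Stat3 was higher in Zucker Fatty (316 to 344) than in Lean livers (167 to 208), by 0.85 (adjusted p = 0.00231). Of 8 genes that sense oxygen and control Vegfa, 0 passed in either mouse table. In WT/Floxed mice 1 of 8 had an unadjusted p under 0.05 (median -0.01), against 13.3% of all genes. In mice labelled SIRT1KO 4 of 8 did (median -0.11), against 11.2% of all genes. Of 13 tested genes for other angiogenic ligands and receptors 0 passed in either (0 and 0 at an unadjusted p under 0.05).

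Across the 21 mouse livers, each gene's deviations from its group means were compared with those of 15601 genes, as a description without a test. The genes most like Vegfb were Pigyl (Pearson r = 0.91), Fahd1 (0.9) and Ilkap (0.89). Those most like Vegfa were Plppr2 (0.85), Pisd-ps1 (0.84) and E4f1 (0.83). Vegfc was most like Hgf (0.84), the growth factor that stellate cells and endothelium supply to hepatocytes, followed by Itpripl2 (0.84) and Extl2 (0.82). Pdgfa was most like Frk (0.89) and Pdgfc most like Kifc3 (0.89). For Pdgfb the closest gene was Basp1 (0.84), for Flt1 Ripor2 (0.82), for Nrp1 Lrrc47 (0.8) and for Pdgfra Angpt2 (0.75). Among the 9 genes themselves the highest r was that of Vegfa with Vegfb (0.67) and the lowest that of Vegfb with Vegfc (-0.66). Of the marker lists, that of sinusoidal endothelium had an r of 0.65 with Vegfc, 0.58 with Flt1, 0.56 with Pdgfb and -0.53 with Vegfb. That of Kupffer cells had an r of 0.61 with Pdgfb, 0.58 with Vegfc and 0.51 with Nrp1. The stellate list, which holds Hgf, had 0.57 with Nrp1, 0.5 with Vegfc and 0.21 with Pdgfra. The platelet list, with 3 tested markers, had 0.55 with Vegfa and 0.53 with Vegfb, and the cholangiocyte list had 0.5 with Pdgfra. These libraries share run codes, and 13 of the 21 share the WT and floxed backgrounds that differ for Vegfa, Vegfb, Vegfc and Pdgfc.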

How the data were processed

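RNA-seq of polyA-selected liver RNA was quantified by the authors with STAR and Salmon on mm10 (mouse) and rn6 (rat). What the authors deposited is a signal: Salmon's estimated gene counts after DESeq2 normalization, done apart for each of the 4 tables. Whole reads came out for only 70.2% to 90.6% of a library's low values, so no count model was run. Depth was estimated from the most frequent lowest value of each library. Groups were taken from the sample labels, and 0 columns were left unmatched. The labels do not say that replicates are more than separate livers.

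Tests used limma 3.58.1 in R 4.3.3 (lmFit, then eBayes with trend = TRUE) on log2(normalized count + 1). Genes whose mean was below 10 were not tested, with Benjamini-Hochberg adjustment over those that were. Adding 1 shrinks the fold change of low counts, while a library at 0 can widen the difference between groups. In Zucker Fatty against Lean rats, Pdgfra differed by 2.3 on this scale, where the ratio of its group means was 1.9. With BT2, Vegfc differed by 0.84, where that ratio was 1.14. Mouse calls needed a fold change above 1.2, a mean over 50, p under 0.05 and adjusted p under 0.2, and rat calls an adjusted p under 0.05. Permutation tests were exact and two-sided over all splits (1287 for 8 against 5, with a smallest p of 0.000777, and 70 for 4 against 4). Confidence intervals are limma's, and floors of 3 reads cover counting error only. Entries without a name or with a repeated name were left out. Seed matches were searched with Python 3.11.15 in the GRCm38 annotation, where 99.32% of coding transcripts ended in a stop codon where the annotation puts one, and levels per kilobase used the union of a gene's exons.

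Named in the text are the 9 genes, the further members of both families, and genes of the other pathway lists that were called. Marker lists are given by sums and counts. The members, the lists and the tests were chosen with earlier results of these data known. The comparison of floxed with WT mice and the fits without rat libraries under 1 M reads were added after the values were seen. Other settings tried were TMM scaling, a pseudocount of 10, no lower limit on the mean, sample quality weights, precision weights in rats, run code or background as covariates, a replicate block, other call limits, repeated names kept, and each library left out. Same-numbered livers did not deviate together (r from -0.28 to 0.24), so the numbers were not taken as pairs.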

Additional observations from a re-analysis of the deposited data

Results flagged for a closer look

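Of 72 sets of values (9 genes in 8 groups), 4 held a value whose gap to its nearest neighbour was large for its group, where chance gives about 1 in 20. Pdgfb was 216.5 normalized counts in the WT/Floxed LNA29 mouse of replicate 4, from 203 estimated reads, and the next highest mouse was at 120.2. Pdgfc was 1003 in the SIRT1KO LNA29 mouse of replicate 1, and the next was at 659.9. Pdgfb was 10.68 in the BT2 rat of replicate 1, which is 3 reads, and the next was at 1.339. Vegfc was 0 in the vehicle rat of replicate 4, where 3 reads would be worth 31 normalized counts, and the next lowest was at 16.5.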

How the results depend on the processing

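No direction of a called member turned under any setting tried, and 0 of the 9 genes were called for LNA29, Zucker Fatty or BT2 under any setting except Pdgfc in Zucker Fatty rats, where sample quality weights and precision weights each called 1. Over the whole table, the 688 genes called in WT/Floxed mice became 396 with no minimum mean, 1308 with sample quality weights and 216 at an adjusted p under 0.05, and the 297 in mice labelled SIRT1KO became 160, 804 and 39, and 103 with the run code as a covariate. The 367 in Zucker Fatty rats became 241 with no minimum, 1169 with quality weights, 890 with precision weights and 707 by the mouse criteria. The 0 with BT2 became 1 with a pseudocount of 10, 1 with quality weights, 1 by the mouse criteria and 2 without libraries under 1 M reads. With the replicate number as a block, 56 genes were called in WT/Floxed mice, 145 in mice labelled SIRT1KO and 221 in Zucker Fatty rats, no member among them, and in WT/Floxed mice Nrp2 (-0.43, adjusted p = 0.56), Col1a1 (0.94, 0.56) and Col1a2 (0.7, 0.55) were not called, nor was Col1a2 in mice labelled SIRT1KO (0.85, 0.204). For floxed against WT mice, 2331 genes and 4 members became 173 and 0 in LNA29 mice alone, 3674 and 2 in saline mice alone, and 895 and 1 at an adjusted p under 0.05.

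Leaving out single livers gave 381 to 1006 called genes in WT/Floxed mice (fewest without LNA29 replicate 8), 77 to 426 in mice labelled SIRT1KO (fewest without LNA29 replicate 4), 225 to 379 in Zucker Fatty rats, 0 to 2 with BT2 and 1409 to 2751 for floxed against WT, with 0 to 0 members called in the first 4 and 3 to 4 in the last. Some differences that none of these fits called changed sign in them, over ranges of -0.06 to 0.15 (Pdgfa), -0.1 to 0.11 (Vegfa) and -0.02 to 0.21 (Vegfb) in WT/Floxed mice, -0.14 to 0.23 (Pdgfa), -0.08 to 0.09 (Vegfa), -0.04 to 0.19 (Vegfc) and -0.07 to 0.15 (Nrp1) in mice labelled SIRT1KO, -0.29 to 1.28 (Vegfb) in Zucker Fatty rats, -0.45 to 0.3 (Pdgfc), -0.21 to 1.21 (Vegfc) and -0.37 to 0.1 (Flt1) with BT2, and -0.1 to 0.01 (Pdgfra) and -0.03 to 0.07 (Nrp1) for floxed against WT.

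Other settings also turned signs, near 0 in the mouse tables and also of larger differences in the rat tables. In WT/Floxed mice Vegfa was -0.01 with the run code or the background as a covariate and -0.03 with the replicate block. In mice labelled SIRT1KO, Nrp1 was -0.04 with quality weights, and with the run code Pdgfa was -0.06, Vegfa -0.01 and Nrp1 -0.05. In Zucker Fatty rats Vegfb (0.76 as reported) was -0.14 with quality weights, -0.13 with precision weights and -0.12 without libraries under 1 M reads, and Pdgfra (2.3) was -0.09 without them. With BT2, quality weights gave 0.21 for Pdgfc (-0.12) and -0.09 for Vegfc (0.84), precision weights -0.14 for Vegfc, and the fit without shallow libraries 0.27 for Pdgfra (-1.17) and -0.24 for Vegfc. For floxed against WT, Pdgfra was 0 in LNA29 mice, and Pdgfa was 0.29 and Nrp1 -0.12 in saline mice. The difference between the responses was 0.06 for Pdgfa with quality weights and 0.04 for Vegfa with the replicate block. The causes were not tested. The planned fit without rat libraries under a set share of the median depth left out none. Depth limits the rat values, with 0 reads in 1 or more libraries for Pdgfa, Pdgfb, Pdgfra, Vegfb and Vegfc, and with a median per library of 2.5 and 1 reads for Pdgfb in the Zucker and BT2 tables, 7.67 and 4.86 for Pdgfa and 6.64 and 7.2 for Pdgfc.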

Other observations

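The comparison of floxed with WT mice, added after the values were seen, was also read for the other lists, where 14.7% of all genes were called, 7.26% higher and 7.48% lower. Several of the counts are near these shares. Of 16 tested genes for ligand processing and co-receptor partners, 3 were lower in floxed livers, with a list median of -0.18 against -0.01 over all genes. They were Furin (log2 difference -0.74, adjusted p = 0.0282 in limma), a protease that matures growth factor precursors, St14 (-0.44, adjusted p = 0.119) and Ccbe1 (-0.36, adjusted p = 0.0807), which is known for helping to mature VEGF-C. Of the 7 further family members, Pdgfd was lower (-0.33, adjusted p = 0.108). Of 8 genes of oxygen sensing, Vhl, which marks hypoxia-inducible factors for decay, was higher (0.48, adjusted p = 0.0092), while Arnt (-0.38, adjusted p = 0.124) and Egln3 (-0.41, adjusted p = 0.16) were lower. Of 15 relay genes, Hras was higher (0.56, adjusted p = 0.0172) and Sos1 (-0.33, adjusted p = 0.0434) and Stat3 (-0.45, adjusted p = 0.133) were lower. Of 13 other angiogenic genes, Fgf1 was lower (-0.54, adjusted p = 0.0597). When single mice were left out, Vhl, Hras, Furin, Fgf1 and Ccbe1 were called in all 13 fits, Sos1 and Pdgfd in 12, St14 in 11, Arnt in 7, Stat3 in 6 and Egln3 in 3. In LNA29 mice alone 10 of these 11 genes were not called, with Vhl as the exception.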
